A study of Mus musculus with 2 samples.

Results

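Striated muscle microRNA genes are the 9 mouse genes that encode the microRNAs (miRNAs) of skeletal and heart muscle, and their levels were examined here in embryonic hindbrain. They were chosen by name, as the rows whose Ensembl identifiers carry the symbols Mir206, Mir133b, Mir208a, Mir208b, Mir499, Mir1a-1, Mir1b, Mir133a-1 and Mir133a-2, out of 1973 miRNA genes in all. Small RNA with a labelled size range under 30 was sequenced from hindbrain of B6NCrl mouse embryos at embryonic day 12.5. There was 1 group of 2 libraries, biological replicate 1 from a pool of 120 embryos and biological replicate 2 from a pool of 88, healthy and of both sexes. No treatment or genotype distinguishes the libraries, so the only comparison is between replicates, and the labels name a single donor for both pools.

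A miRNA is cut from the arm of a hairpin precursor and represses messenger RNAs that pair with its seed, the bases near its 5′ end. Mir206 and Mir133b are made from the same noncoding transcript in skeletal muscle precursors, where miR-206 promotes differentiation of myoblasts. Mir208a, Mir208b and Mir499 lie inside myosin heavy chain genes of heart and slow muscle and are made together with them, while the miR-1 and miR-133a genes are active in both heart and skeletal muscle. Striated muscle forms from mesoderm, outside the neural tissue of the hindbrain.

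The depth on the gene's own strand was 2764276 counts in replicate 1 and 3946444 in replicate 2. Levels are given as counts per 1000000 of these counts (CPM), which take in both arms of a hairpin and only reads with 1 genomic position. In addition, 32.7% of all reads in replicate 1 and 33.4% in replicate 2 matched several positions and belong to no gene. Where no read was counted, a fixed bound of 3 counts was used, or 1.09 and 0.760 CPM in replicates 1 and 2. The exact intervals for 0 counts reach slightly higher, to 1.33 and 0.935 CPM. Mature miRNAs are of nearly the same length, so CPM was not divided by length, but ligation preferences act on each miRNA and make ratios between genes less certain than ratios of 1 gene between libraries. All intervals are exact 95% intervals for counting error only, and reads without molecular identifiers are not independent molecules. Neuronal miRNAs, which mark neural tissue but not hindbrain in particular, had counts in both libraries for 8 of 8 listed genes. Mir137, a regulator of neuronal differentiation, had 3263 CPM against 3343 CPM in replicate 2, and Mir153, another neuronal miRNA, had 1316 and 1614 CPM. The 8 genes summed to 5863 and 6340 CPM, and 6 of them were higher in replicate 2. The others, Mir128-1 (283 and 190 CPM) and Mir128-2 (173 and 132 CPM), were lower.

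The hairpins of the 5 members that carry nearly all of the muscle counts are shown first, because their sequences decide whether a read can be placed at a single gene. Hairpin and mature sequences are from RefSeq on GRCm38.p6, matched by symbol, and 5 of the 9 members had an entry. Each is written 5′ to 3′ with the muscle miRNA of the hairpin in capitals.
Mir206: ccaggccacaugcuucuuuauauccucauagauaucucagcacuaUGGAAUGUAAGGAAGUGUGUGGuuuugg
Mir133b: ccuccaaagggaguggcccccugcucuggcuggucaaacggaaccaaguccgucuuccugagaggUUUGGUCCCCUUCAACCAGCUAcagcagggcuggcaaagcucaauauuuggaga
Mir208a: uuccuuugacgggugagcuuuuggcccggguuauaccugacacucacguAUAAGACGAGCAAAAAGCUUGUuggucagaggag
Mir208b: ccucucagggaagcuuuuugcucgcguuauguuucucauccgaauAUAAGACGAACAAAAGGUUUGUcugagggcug
Mir499: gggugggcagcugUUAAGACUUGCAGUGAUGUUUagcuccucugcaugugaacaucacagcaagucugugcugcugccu
The longest run that the Mir206 hairpin shares with any other annotated miRNA hairpin is 13 bases, and for Mir208a, Mir208b and Mir499 it is 12, 11 and 12 bases. The hairpins of Mir208a and Mir208b share no run longer than 10 bases with each other. Mir133b differs from these, since it has an identical run of 21 bases in Mir133a-1 and in Mir133a-2. The copies of miR-1a share 28 bases (Mir1a-1 and Mir1a-2) and those of miR-133a share 31 bases (Mir133a-1 and Mir133a-2). Reads inside such a run match several genes and are counted for none, which bears on Mir133b, Mir1a-1, Mir133a-1 and Mir133a-2. Hairpins were compared in the same direction only. Mir1b spans Mir1a-2 on the other strand, so its reads in the run shared with Mir1a-1 can also match several positions. For Mir206, Mir208a, Mir208b and Mir499 no such run was found in annotated miRNA hairpins in that direction.

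The mature muscle miRNAs are shown with their seed, bases 2 to 8, in capitals, because 3 of them are nearly alike there.
miR-206-3p: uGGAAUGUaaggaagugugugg
miR-133b-3p: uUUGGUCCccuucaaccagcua
miR-208a-3p: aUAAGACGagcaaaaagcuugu
miR-208b-3p: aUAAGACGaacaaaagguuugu
miR-499-5p: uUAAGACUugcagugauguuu
The seed of miR-206-3p also stands in the hairpins of Mir1a-1 and Mir1a-2, and that of miR-133b-3p in those of Mir133a-1, Mir133a-2 and Mir133c. Outside the muscle genes, mature miR-6349 and miR-6382 have the seed of miR-206-3p too. The seeds of miR-208a-3p and miR-208b-3p are identical. These 2 miRNAs have 19 of 22 bases in common and differ by G10A, A16G and C18U, with miR-208a-3p as the reference and positions counted from its 5′ end. Against miR-208b-3p, miR-499-5p differs within the first 8 bases by A1U and G8U, so that bases 2 to 7 (UAAGAC) are shared. Among 1738 mature mouse miRNAs in the RefSeq table, only these 3 have those 6 bases at that position.

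The genes lie on chromosomes 1, 2, 14 and 18 of GRCm38, the assembly also called mm10. Mir206 (ENSMUSG00000065559.1) is at chr1:20679010-20679082 and Mir133b (ENSMUSG00000065480.1) at chr1:20682769-20682887, both on the plus strand and both overlapping exons of the long noncoding RNA gene Gm28653, 3686 bases apart. Mir208a (ENSMUSG00000065432.1) is at chr14:54949060-54949142 in an intron of Myh6, which encodes alpha myosin heavy chain. Mir208b (ENSMUSG00000077928.1) is at chr14:54975700-54975776 in an intron of the neighbouring Myh7, the gene of beta myosin heavy chain, and both are on the minus strand. Mir499 (ENSMUSG00000076312.1) is at chr2:155622880-155622958 on the plus strand, in an intron of Myh7b. On the same chromosome, Mir1a-1 (chr2:180389048-180389124) and Mir133a-2 (chr2:180398379-180398482) lie 9254 bases apart with no gene of GENCODE M21 overlapping either hairpin. Mir133a-1 (chr18:10782909-10782976, minus strand) lies in an intron of the noncoding Mir133a-1hg. Mir1b (chr18:10785446-10785567, plus strand) lies in an intron of Mib1 and overlaps Mir1a-2, which is on the other strand.

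Muscle miRNAs were a small part of the hindbrain profile, and Mir206 made up most of them in both libraries. The 9 members together had 489 counts in replicate 1 and 2555 in replicate 2, a share of 0.0177% (0.0162% to 0.0193%) and 0.0647% (0.0623% to 0.0673%), with a mean of 0.0412% ± 0.0333 (SD, n = 2). At least 10 counts in both libraries were found for 5 members, Mir206, Mir133b, Mir208a, Mir208b and Mir499. Mir206 gave 82.6% (79.0% to 85.9%) of the muscle counts in replicate 1 and 89.4% (88.2% to 90.6%) in replicate 2.

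**Figure D1:**
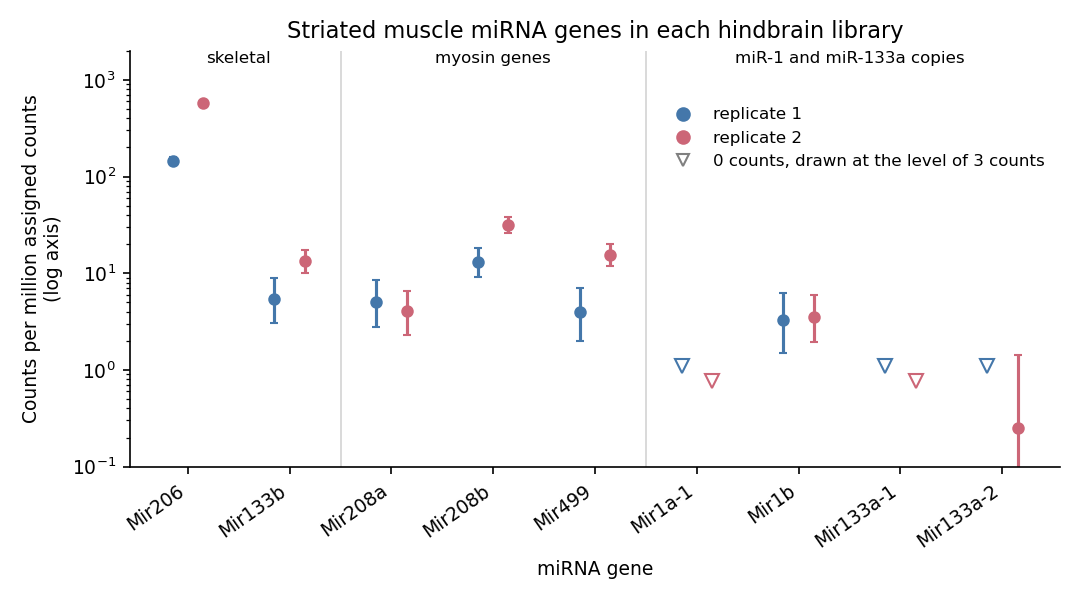
Level of each of the 9 muscle miRNA genes in replicate 1 (blue) and replicate 2 (red), in CPM on a log axis, with exact 95% counting intervals. Open triangles mark 0 counts and stand at the level of 3 counts. Mir206 lies at 146 and 579 CPM, far above the other 8 genes, and the libraries lie apart for Mir206, Mir133b, Mir208b and Mir499.

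Of the skeletal muscle pair, Mir206 was the higher gene by a wide margin in each library. Mir206 had 404 counts or 146 CPM (132 to 161) in replicate 1 and 2285 counts or 579 CPM (556 to 603) in replicate 2, with a mean of 363 ± 306 CPM (SD, n = 2). This placed it at rank 197 of the 1973 genes in replicate 1 and at rank 129 in replicate 2. Of these 1973 genes, 1238 had 0 counts in both libraries and 371 had at least 10 counts in both. Its neighbours in mean level differed much less between the libraries. Mir494, just above it, had 388 and 353 CPM, Mir376c had 343 and 398 CPM, and below it Mir760 had 396 and 308 CPM and Mir7-1 had 375 and 328 CPM. The order of Mir206 among these 4 genes therefore depends on the library, since it was below all of them in replicate 1 and above all of them in replicate 2.

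Mir133b, transcribed with Mir206 and known as a repressor of nonmuscle genes, had 15 counts or 5.43 CPM (3.04 to 8.95) in replicate 1. In replicate 2 it had 53 counts or 13.4 CPM (10.1 to 17.6). Mir206 exceeded Mir133b by 26.9-fold (16.1 to 48.6) in replicate 1 and by 43.1-fold (32.8 to 57.7) in replicate 2. These intervals overlap. The share of Mir133b reads lost to the identical run in the miR-133a hairpins was not measured, so the ratio is an upper value as far as that loss goes.

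The 3 myosin gene miRNAs, markers of heart and slow muscle fibres, were far rarer than Mir206, which exceeded even Mir208b by 11.2-fold (7.97 to 16.3) in replicate 1 and by 18.3-fold (15.3 to 22.1) in replicate 2. Mir208b, of the slow and fetal myosin gene Myh7, had 36 counts or 13.0 CPM (9.12 to 18.0) in replicate 1 and 125 counts or 31.7 CPM (26.4 to 37.7) in replicate 2. Mir499, of Myh7b, had 11 counts or 3.98 CPM (1.99 to 7.12) and 61 counts or 15.5 CPM (11.8 to 19.9). Mir208a, whose host Myh6 is a heart muscle gene, had 14 counts or 5.06 CPM (2.77 to 8.50) and 16 counts or 4.05 CPM (2.32 to 6.58). In replicate 1 the order was Mir208b above Mir208a and Mir499, and the last 2 did not differ beyond counting error, with a ratio of Mir499 to Mir208a of 0.786 (0.323 to 1.86). In replicate 2 Mir208b stood above Mir499, which stood above Mir208a, with a ratio of Mir499 to Mir208a of 3.81 (2.17 to 7.08). The ratio of Mir208b to Mir208a was 2.57 (1.35 to 5.16) in replicate 1 and 7.81 (4.63 to 14.1) in replicate 2, and these intervals overlap at their ends. Mir208b exceeded Mir499 3.27-fold in replicate 1 and, in replicate 2, 2.05-fold, with both intervals above 1. The ratio of Mir133b to Mir499 was 1.36 (0.585 to 3.28) and 0.869 (0.590 to 1.28), so this pair did not differ beyond counting error in either library.

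The miR-1 and miR-133a genes were nearly without counts. Mir1a-1 and Mir133a-1 had 0 counts in both libraries, and Mir133a-2 had 0 in replicate 1 and 1 count in replicate 2. These miRNAs are the most abundant of adult heart and skeletal muscle, and their mature sequences have identical copies in the genome, so the values are no measure of miR-1a or miR-133a in the tissue. Mir1b, with no run over 13 bases in another hairpin in the same direction, had 9 counts or 3.26 CPM (1.49 to 6.18) in replicate 1. In replicate 2 it had 14 counts or 3.55 CPM (1.94 to 5.95). Since Mir1b spans Mir1a-2 on the other strand, part of its reads may match Mir1a-1 as well, and this loss was not measured. Mir1a-2 itself was not found by name among the 1973 genes, so it has no value here. On the strand opposite to Mir1b, which is the strand of Mir1a-2, there were 0 and 2 counts, below the bound of 3. No other member had a count on the opposite strand.

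**Figure D2:**
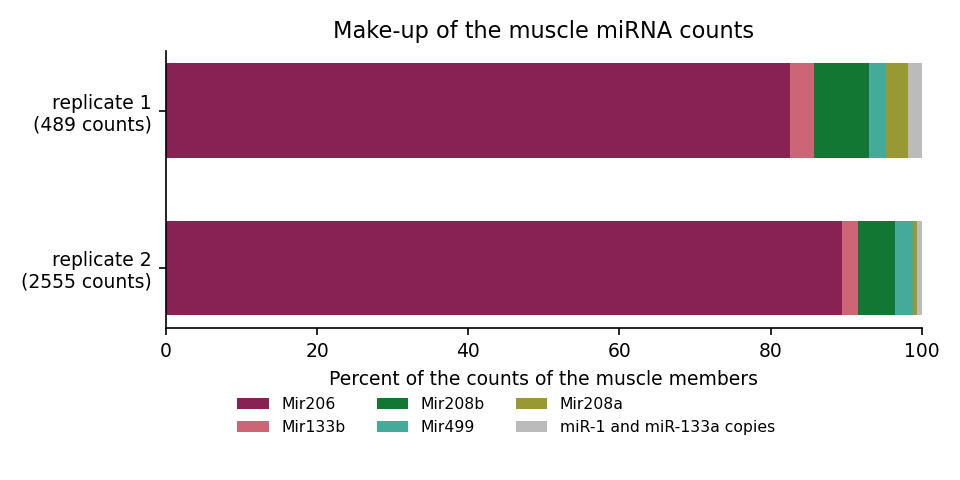
Make-up of the muscle miRNA counts in each library, as percent of the 489 counts of replicate 1 and the 2555 counts of replicate 2. Mir206 fills 82.6% and 89.4%, and the myosin gene miRNAs together fill 12.5% and 7.91%.

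The skeletal and myosin groups both had higher sums in replicate 2, by different amounts, although Mir208a of the myosin group did not. The skeletal pair had 152 CPM in sum in replicate 1 against 592 CPM in replicate 2, a 3.91-fold difference (3.52 to 4.35). The myosin gene miRNAs summed to 22.1 and 51.2 CPM, a 2.32-fold difference (1.73 to 3.14), and the 2 intervals did not overlap. The larger difference of the skeletal pair is that of Mir206, which gave 404 of its 419 counts in replicate 1 and 2285 of 2338 in replicate 2. The ratio of Mir133b, 2.47 (1.37 to 4.73), lay within the range of the myosin gene miRNAs and below that of Mir499. The skeletal pair accordingly held 85.7% (82.3% to 88.7%) of the muscle counts in replicate 1 and 91.5% (90.4% to 92.6%) in replicate 2. The 8 members without Mir206 summed to 30.7 and 68.4 CPM, a 2.22-fold difference (1.74 to 2.87), so the higher muscle counts of replicate 2 were not those of Mir206 alone. Both libraries are from bulk tissue, so which cells gave these counts was not measured. More such cells and more of these miRNAs in each cell cannot be told apart.

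Of the 6 members with enough counts to test, 4 were called higher in replicate 2 and none lower. Only genes that averaged 10 or more counts were tested between the libraries, and a call needed a ratio of 2-fold or more beside an adjusted p below 0.05. Each was tested by a two-sided exact binomial test with Benjamini-Hochberg adjustment over all 393 such genes. Among these 393 genes 3.56% were called, 2.29% as higher and 1.27% as lower in replicate 2. The test compares these 2 libraries and not conditions, and its p-values hold counting error only.

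Mir206 was 3.96-fold higher in replicate 2 (3.56 to 4.41), with an adjusted p of 6.99e-189 by the exact binomial test. Mir499 was 3.88-fold higher (2.03 to 8.19), with an adjusted exact p of 9.70e-06. Ranked by the ratio with 0.5 added to each count, these were the 2 largest of all tested genes. Mir133b was 2.47-fold higher (1.37 to 4.73, adjusted exact p 0.00287) and Mir208b 2.43-fold higher (1.67 to 3.63, adjusted exact p 2.47e-06). Mir208a was not called, with a ratio of 0.801 (0.366 to 1.77, adjusted exact p 0.669), and neither was Mir1b, with a ratio of 1.09 (0.439 to 2.85, adjusted exact p 1.0). The interval of Mir208a does not overlap those of Mir206 and Mir499, but it overlaps those of Mir208b and Mir133b. For Mir1b the counts leave ratios up to 2.85 possible, so a difference of the size of that of Mir208b is neither shown nor excluded.

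**Figure D3:**
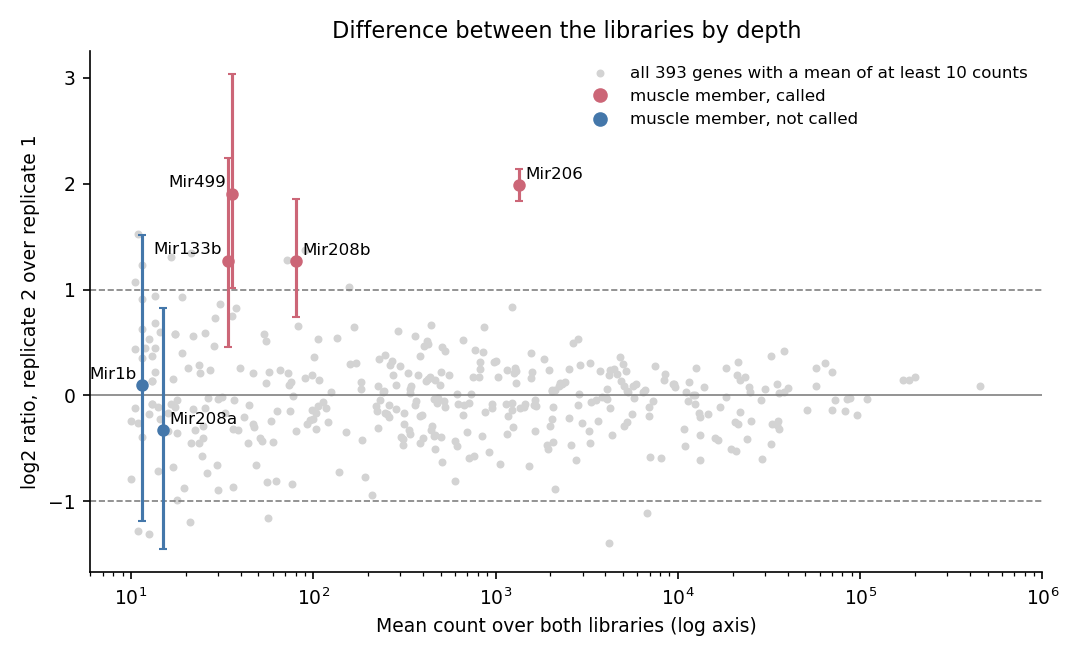
Log2 ratio of replicate 2 over replicate 1, with 0.5 added to each count, against the mean count on a log axis for the 393 tested genes (grey). The 6 tested muscle genes carry exact 95% counting intervals of the ratio without the added count, red for called and blue for not called, and dashed lines mark 2-fold. Mir206 stands at 1.98, farther from 0 than any other of the 275 genes that average 100 or more counts, of which Mir200c at -1.39 comes next, whereas the other called members lie among sparser genes with a wider scatter.

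The spread of the libraries depends on depth, and the tested members lie on both sides of a mean of 100 counts. Over the 275 genes that averaged 100 or more counts, the median absolute log2 ratio was 0.20 and 0.727% were called as higher in replicate 2, which are Mir206 and Mir181b-1. Over the 118 genes with a mean of 10 to under 100 counts it was 0.38 and 5.93% were called as higher. Mir499, Mir208b and Mir133b belong to these 118 genes, with Mir193b, Mir741, Mir6977 and Mir449c as the others called higher. Mir208a and Mir1b, which were not called, belong to these 118 genes too. On the log2 scale with 0.5 added to each count, the median ratio of the 6 tested members was 1.27, against -0.04 over all 393 genes. Beyond counting error, the libraries varied with a coefficient of variation of 17.3% over these 393 genes, by the common dispersion of edgeR. Both pools have the same labels except for their number of embryos, and there is no further library that would show which of them is the more typical.

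The genes outside the muscle set whose ratio was nearest to that of Mir206 were well below it. Among the 275 deeper genes, the log2 ratio nearest to 1.98 was 1.02, for Mir181b-1 (28.9 and 59.0 CPM). Mir101a followed at 0.83, with 251 CPM in replicate 1 and 449 CPM in replicate 2. Mir30b had 0.66, Mir3071 had 0.65 and Mir675, which is made from the H19 transcript, had 0.65. These likenesses rest on 2 libraries. Mir181b-1 and Mir101a share a run of at least 20 bases with another hairpin.

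The miRNAs with reported roles in muscle cells that are also made in many other tissues had close sums in the 2 libraries. Of 18 listed genes 17 were in the tables, 16 were tested and none was called in either direction, where 3.56% of all tested genes were. For a list of this length that is close to the share of all genes. With 0.5 added to each count, the ratios of the tested genes ran from 0.721 to 1.57. Their summed level was 37264 CPM against 38606 CPM in replicate 2, and their median log2 ratio was 0.10. The 2 highest were Mir322, a promoter of cell cycle exit in myoblasts, with 19078 and 22188 CPM, and Mir214 with 12145 and 9714 CPM. These 2 differed in opposite directions, which brings the sums closer together. Mir503, in a cluster with Mir322, had 473 and 599 CPM. Mir486, found in both muscle and red blood cells, had 21.3 and 15.7 CPM.

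**Figure D4:**
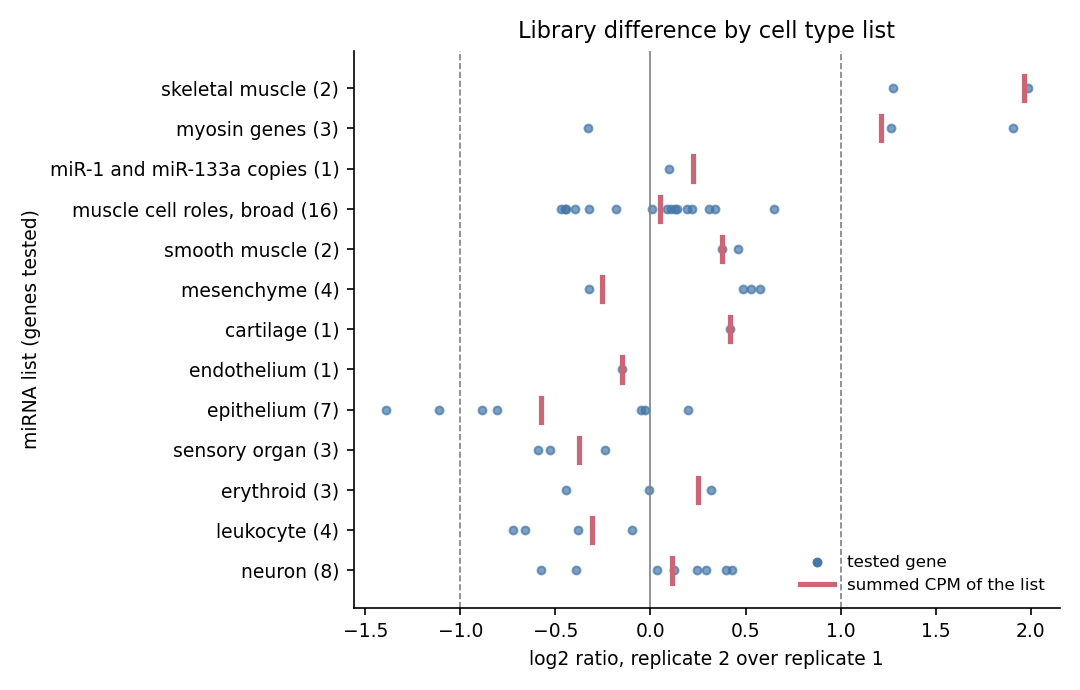
Log2 ratio of replicate 2 over replicate 1 for the tested genes of 13 miRNA lists (blue points) and for the summed CPM of each list (red bars), with dashed lines at 2-fold. The skeletal and myosin lists lie farthest to the right, at 3.91-fold and 2.32-fold in summed CPM, and the epithelium list lies farthest to the left, at 0.670-fold.

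Markers of other cell types also differed between the libraries, by less than 2-fold in summed CPM. Of all 393 tested genes 2.29% were called higher and 1.27% lower, so a list of few genes with 0 calls is close to that share. The smooth muscle list is Mir143 (8223 and 10663 CPM) and Mir145a (124 and 171 CPM), and its sum was 8348 CPM against 10834 CPM in replicate 2, with 0 of 2 genes called. Mir140, of cartilage, had 9555 and 12758 CPM and was not called. In the mesenchyme list 0 of 4 tested genes were called. Its sum was 12931 CPM and then 10846 CPM, although Mir199a-1, Mir199a-2 and Mir199b had ratios above 1 and only Mir214 had one below. Mir199b, the second highest of that list, had 672 and 970 CPM.

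In the epithelium list 0 of 7 tested genes were called higher and 2 lower, where 2.29% and 1.27% of all tested genes were. Its sum was 9660 CPM against 6470 CPM in replicate 2. Those called were Mir429 (2950 and 1362 CPM) and Mir200c (1959 and 746 CPM), while Mir203, the other of its highest pair, had 2230 and 2155 CPM. Only Mir205 of the 7 had a ratio above 1, with 1271 and 1459 CPM. The sensory organ list summed to 22128 and 17022 CPM and was led by Mir182 and Mir183, with 0 of 3 genes called. Endothelial Mir126a had 25987 and 23442 CPM. The erythroid list, led by Mir451a and Mir144, summed to 298 and 355 CPM with 0 of 3 called. Of its genes only Mir451a was higher in replicate 2 (254 and 316 CPM). Mir144 was level (23.2 and 23.1 CPM) and Mir486 was lower (21.3 and 15.7 CPM). The leukocyte list, led by Mir223 and Mir155, summed to 573 and 464 CPM with 0 of 4 called. Every list had counts in both libraries and, outside the miR-1 and miR-133a copies, no listed gene in the tables was at 0 in both. The part of these differences in the higher muscle miRNAs of replicate 2 was not tested.

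The hairpins of the called members varied in base composition. Their GC content ran from 42.5% for Mir206 to 56.3% for Mir133b, where the quartiles of all detected hairpins were 44.1% and 56.3%, and Mir208a, which was not called, had 49.4%. They lie on chromosomes 1, 2 and 14. Mir208b and Mir208a lie 26557 bases apart, in introns of the neighbouring myosin genes Myh7 and Myh6, and of these Mir208b was called and Mir208a was not.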

How the data were processed

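The authors deposited raw counts of reads for every miRNA gene, from alignments to mm10 and the GENCODE M4 annotation, according to the text file beside each table. Which aligner and trimming they used is not given in the sources used here. The tables have no header. The column taken as the gene's own strand was used, a reading inferred from the layout and from its holding nearly all counts (the opposite strand held 2.38% and 2.35%). Totals exclude the 4 rows without a gene. In replicates 1 and 2 these held 15.7% and 16.2% of reads as unmapped, 32.7% and 33.4% as multimapping, 5.12% and 4.81% as in no miRNA gene of that strand, and none as ambiguous.

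Identifiers were matched without version to GENCODE M21, which named 1894 of 1973 genes. CPM, exact Clopper-Pearson intervals of shares, Poisson intervals of levels and conditional binomial intervals of ratios were computed with SciPy 1.17.1 in Python 3.11.15. A ratio used for calls had 0.5 added to each count. A model with a contrast could not be fitted with 1 library on each side, so the binomial test was used. It was tested on simulated data that held counting error only, so the simulation does not cover further variation between these libraries. The common dispersion came from edgeR 4.0.16 with an intercept only. The counts of the libraries differed by more than sampling noise (chi-square 104 per degree of freedom), so they are not copies.

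Alternatives were other count minimums, fold minimums, strands, scalings (TMM, DESeq2 1.42.0 size factors, without the most abundant gene), pseudocounts, denominators and leaving out a library. Besides the members, the text names the 5 genes that average 100 or more counts and have a ratio nearest to that of Mir206, 2 genes above and 2 below it in level, and up to 2 leading genes of each list. Others (Mir193b, Mir741, Mir6977, Mir449c, Mir200c, Mir205, Mir503, Mir486, Mir199a-1, Mir199a-2, Mir128-1, Mir128-2) were named after their values were seen. The members and lists were chosen with earlier results of these data known.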

Additional observations from a re-analysis of the deposited data

How the results depend on the processing

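All 6 tested members kept the direction of their ratio and their side of the threshold under both strands together, TMM, DESeq2 size factors, totals without the most abundant gene and a smaller and a larger pseudocount. The log2 ratio of Mir206 lay between 1.98 and 2.03 under these. A change of scaling shifts the log2 ratios of all genes alike. Of the tested members only Mir1b had counts on the opposite strand, so adding that strand could hardly change the others. With a mean of at least 100 counts only 1 member could be called, Mir206, among 4 genes in all, since the others are sparser. All genes called numbered 203 with no minimum fold and 39 with a minimum of 1.5-fold, while 4 of the 6 tested members were called under each. These are 51.7% and 9.92% of all tested genes, so with no minimum fold the members' count is close to the background. Of the calls, 48.8% and 41.0% were higher in replicate 2, against 64.3% as reported. The share of the miR-1 and miR-133a genes was 0.000408% without the most abundant gene, against 0.000353% ± 3.85e-05 (SD, n = 2) with it. The share of all muscle members was 0.0177% without replicate 2 and 0.0647% without replicate 1. Of 78 values under alternatives, 5 moved and none reversed. A share with a library left out could not count as moved, since each of 2 values lies within the SD of their mean. The tally therefore does not show how far the shares depend on the library. No paired analysis was possible because the series has a single group. Depth limits Mir208a, Mir1b, Mir133b and Mir499, which had under 20 counts in replicate 1.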
